A study of Arabidopsis thaliana with 18 samples.

Results

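The sites described here are peaks of SVP:GFP or FLC that the authors assigned to a gene and that overlapped, by at least 1 bp, a peak of the other protein in either genotype. They were chosen by that overlap, and 448 of the 1503 deposited peaks met it, from 1131 peaks with an assigned gene (genic peaks). Chained with all peaks that overlap them, they formed 160 joint regions, out of 723 genic regions and 970 regions in all. A further 384 genic regions were held by SVP:GFP lists only and 179 by FLC lists only, and 40 regions of both proteins had no assigned gene at the shared peaks.

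The study mapped by ChIP-seq where each protein binds when its partner is functional and when it is mutated, in above-ground tissue of Arabidopsis thaliana seedlings that were 2 weeks old. SVP fused to GFP and driven by its own promoter was precipitated with an antibody against GFP, in svp-41 flc-3 plants (SVP:GFP in flc-3) and in svp-41 plants with functional FLC (SVP:GFP in WT). FLC was precipitated with an FLC antiserum in svp-41 plants with functional FLC (FLC in svp-41) and in plants with functional SVP and FLC (FLC in WT). The labels name 35S:GFP plants as the negative control of the SVP:GFP experiment and svp-41 flc-3 plants without the fusion protein as that of the FLC experiment. The study's supplementary methods state that control samples were pooled into a single control for peak calling, and whether this was done separately for each protein could not be settled here. The ecotype label of all groups is Columbia-0 FRI, FRI being the active allele, and each of the 6 groups had 3 samples. Day length is given as long days in the sample labels and as short days in the methods of the study. Both SVP:GFP groups derive from crosses of 1 line with the fusion gene, and in both the endogenous SVP gene carries the svp-41 mutation. The lists hold merged peaks without values for single replicates, so no SD or n can be given, and the depth behind a peak is unknown. Each list gives for a peak a fold-enrichment, the ratio of ChIP signal to the pooled control, and a −log10 p-value from the authors' peak calling, by which peaks were ranked. SVP:GFP in flc-3 had 246 peaks, SVP:GFP in WT 523, FLC in svp-41 419 and FLC in WT 315.

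SVP and FLC are MADS-domain transcription factors that delay flowering and that bind DNA as parts of dimers or larger complexes. FLC holds back flowering until a long cold period silences it, and FRI keeps its expression high. SVP acts in leaves and at the apex and takes part in the response to ambient temperature. The sequence that MADS-domain proteins recognise is the CArG-box, a pair of C, a core of A or T and a pair of G. The G-box, CACGTG, is the site of many bHLH and bZIP factors of light and hormone signalling.

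The sequences below show motifs at joint regions of 13 genes from a list of flowering regulators, read 5′ to 3′ on the strand of the named gene. The genes, and the kind of motif shown for each, were picked by hand, so these examples do not give motif frequencies. In the 200 bp round a summit, 19 of all 160 joint regions (11.9%) had an exact CArG-box and 21 (13.1%) a G-box. A CArG-box that was exact or 1 base off was at 106 (66.2%). The genome is the RefSeq assembly TAIR10.1. The capitals mark a CArG-box with 1 base off the consensus in the first 4 sequences, an exact CArG-box in the next 7 and a G-box in the last pair.
SEP3 (chr1:8598832-8598921, minus strand): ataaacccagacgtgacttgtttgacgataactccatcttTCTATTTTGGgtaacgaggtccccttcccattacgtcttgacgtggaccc
SOC1 (chr2:18811126-18811211, minus strand): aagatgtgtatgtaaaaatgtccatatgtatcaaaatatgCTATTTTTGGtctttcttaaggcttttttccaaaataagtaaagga
RGL2 (chr3:822738-822827, minus strand): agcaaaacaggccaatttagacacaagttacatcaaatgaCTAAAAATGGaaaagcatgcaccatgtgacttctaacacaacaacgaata
CBF1 (chr4:13023543-13023632, minus strand): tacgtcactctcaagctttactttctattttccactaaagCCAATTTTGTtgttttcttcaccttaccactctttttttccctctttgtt
SHP2 (chr2:17819807-17819896, plus strand): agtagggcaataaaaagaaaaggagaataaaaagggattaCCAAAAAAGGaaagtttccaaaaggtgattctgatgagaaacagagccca
SMZ (chr3:20379128-20379217, minus strand): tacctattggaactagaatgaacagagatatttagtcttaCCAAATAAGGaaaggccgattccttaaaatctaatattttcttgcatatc
MIR156E (chr5:3865656-3865745, plus strand): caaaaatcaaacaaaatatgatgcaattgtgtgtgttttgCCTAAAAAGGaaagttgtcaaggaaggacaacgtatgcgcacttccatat
TEM1 (chr1:8983869-8983958, minus strand): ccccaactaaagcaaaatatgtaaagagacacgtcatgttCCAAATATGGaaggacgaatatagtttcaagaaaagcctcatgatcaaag
SPA2 (chr4:6771937-6772026, plus strand): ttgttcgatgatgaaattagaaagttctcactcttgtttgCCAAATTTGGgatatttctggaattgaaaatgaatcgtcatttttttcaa
FT (chr1:24331761-24331850, plus strand): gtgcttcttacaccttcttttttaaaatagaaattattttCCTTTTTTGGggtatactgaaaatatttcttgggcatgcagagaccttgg
AP2 (chr4:17397945-17398034, plus strand): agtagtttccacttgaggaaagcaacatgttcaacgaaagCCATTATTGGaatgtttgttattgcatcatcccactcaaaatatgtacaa
JAZ6 (chr1:27277031-27277116, minus strand): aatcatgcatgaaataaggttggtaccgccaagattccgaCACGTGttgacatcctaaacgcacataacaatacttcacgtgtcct
DDF1 (chr1:4292181-4292266, minus strand): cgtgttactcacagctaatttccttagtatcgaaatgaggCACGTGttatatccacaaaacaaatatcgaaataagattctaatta

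In these sequences the motif lay upstream of the named gene, except at SPA2 and FT, where it lay in an annotated intron. The centre of the SHP2 CArG-box was 27.5 and 14.5 bp from the summits of SVP:GFP (flc-3 and WT), and 2.5 and 37.5 bp from those of FLC (svp-41 and WT). The SPA2 CArG-box was 2.5 and 7.5 bp from the summits of SVP:GFP (flc-3 and WT), and 3.5 bp from that of FLC in WT. At SOC1 the CArG-box with 1 base off ended close to the gene start, and all 4 summits lay within 25.5 bp of its centre. At TEM1 and AP2 the motif was close to 1 of the 2 summits: the TEM1 CArG-box was 24.5 bp from the SVP:GFP summit and 190.5 bp from the FLC summit in WT, and that of AP2 129.5 bp and 4.5 bp. The FT CArG-box was 3.5 bp from the FLC summit in svp-41 and 488.5 bp from the SVP:GFP summit in flc-3. The marked JAZ6 G-box was 83.5 bp from the SVP:GFP summit in WT, and 27.5 and 64.5 bp from those of FLC (svp-41 and WT). Another G-box in the JAZ6 stretch is left in small letters. The marked DDF1 G-box was 21.5 bp from the SVP:GFP summit and 53.5 bp from the FLC summit in WT.

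SVP:GFP in flc-3 gave 55 joint peaks, SVP:GFP in WT 146, FLC in svp-41 112 and FLC in WT 135. These were 28.5% of the 193 genic peaks of SVP:GFP in flc-3, 30.2% of 484 in WT, 46.3% of 242 of FLC in svp-41 and 63.7% of 212 in WT. Among all peaks of a list, with or without a gene, 37.4% of SVP:GFP in flc-3, 31.2% of SVP:GFP in WT, 35.6% of FLC in svp-41 and 52.4% of FLC in WT overlapped the other protein. The overlap is what chose the members, so these shares are given as a description. Most overlaps were close to complete, and in each list the median overlap was 100% of the shorter peak. The summit lay inside a peak of the other protein for 53 of the 55 members of SVP:GFP in flc-3, 142 of 146 in WT, 111 of 112 of FLC in svp-41 and 135 of 135 in WT.

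Held by SVP:GFP in WT and both FLC lists, 49 regions formed the largest class, and 42 were held by both WT lists alone. All 4 lists held 34 regions. SVP:GFP in WT shared 13 with FLC in svp-41 alone, and the remaining regions all included SVP:GFP in flc-3 and lacked at least 1 other list. In total 51 joint regions were in both mutant lists and 128 in both WT lists. Of the 160 joint regions, 56 held a peak of SVP:GFP in flc-3, 147 of SVP:GFP in WT, 113 of FLC in svp-41 and 135 of FLC in WT. The lists differ in length and in their lowest −log10 p-value, and the part of this in the classes was not tested. The lists of a protein also share their control samples. The regions had a median width of 546 bp, from 119 to 4826 bp.

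**Figure D1:**
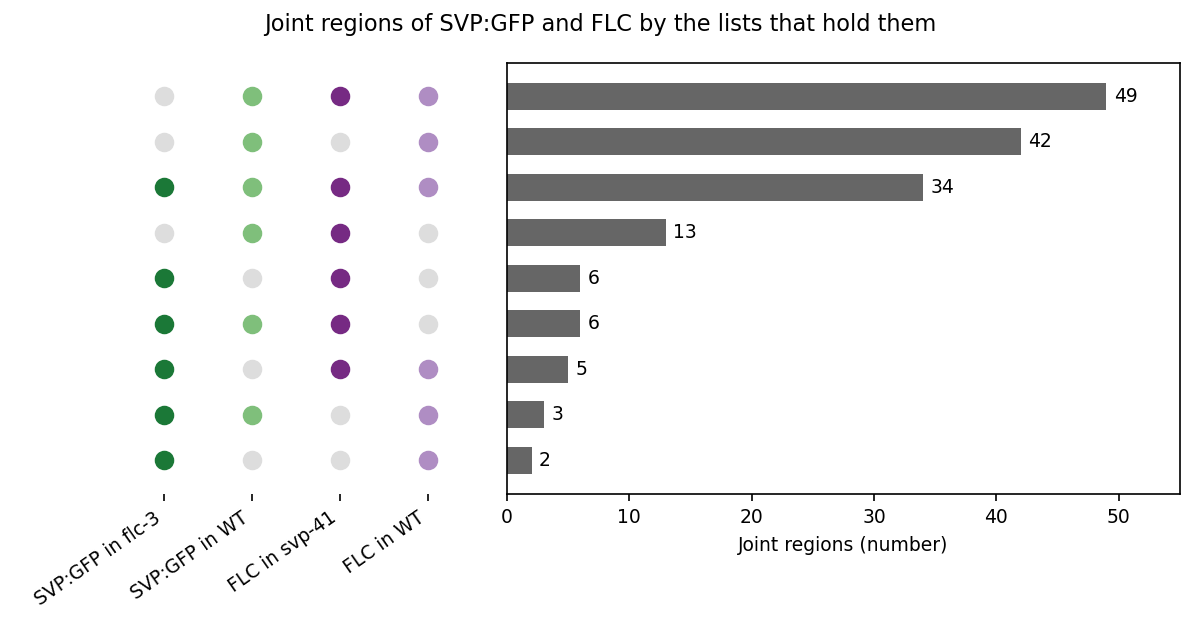
Joint regions by the lists that hold them. Each row is a class, coloured dots mark the lists that hold it, and bars give the number of regions, from 49 for SVP:GFP in WT with both FLC lists to 2 for SVP:GFP in flc-3 with FLC in WT.

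The joint regions lay on all 5 chromosomes. They made up 23.8% of the genic regions of chromosome 1, 13.9% of chromosome 2, 26.2% of chromosome 3, 19.7% of chromosome 4 and 27.7% of chromosome 5. They were assigned to 266 genes, of which 265 belonged to a joint peak, and 4 of these identifiers had no entry in the TAIR10.1 annotation. Of the genes at joint peaks, 247 were protein-coding, 5 encode tRNAs and 3 encode miRNAs. TPS8, a member of the trehalose-phosphate synthase family, AT4G08760 and CBF1 each had 2 joint regions.

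The summits of the 2 proteins lay close together in joint regions. The pairs were chosen because their peaks overlap, which itself limits the distance, so the values are a description. Over 326 pairs of overlapping SVP:GFP and FLC peaks the median distance between summits was 19 bp, with quartiles of 9 and 38 bp, and 273 pairs (83.7%) were within 50 bp. The median was 18 bp for SVP:GFP in flc-3 and FLC in svp-41, 10 bp for SVP:GFP in flc-3 and FLC in WT, 20 bp for SVP:GFP in WT and FLC in svp-41, and 20.5 bp for both WT lists. For comparison, summits of the same protein in the joint regions were a median of 17.5 bp apart between the lists of SVP:GFP, and 20 bp apart between the lists of FLC. The distances between the proteins were of the same size as those between genotypes of 1 protein, and no test was made of it.

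In 4 regions the closest SVP:GFP and FLC summits were over 200 bp apart. At JAZ9, which encodes a repressor of jasmonate signalling, they were 1106 bp apart within the gene. The distance was 658 bp at AT3G57800 and AT3G57810, 485 bp at FT and 399 bp at ARF2, which encodes an auxin response factor. At FT, which encodes the mobile flowering signal, the SVP:GFP summit in flc-3 was 56 bp upstream of the gene and the FLC summit in svp-41 was in an intron. These peaks shared 93 bp, the smallest overlap of any member.

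**Figure D2:**
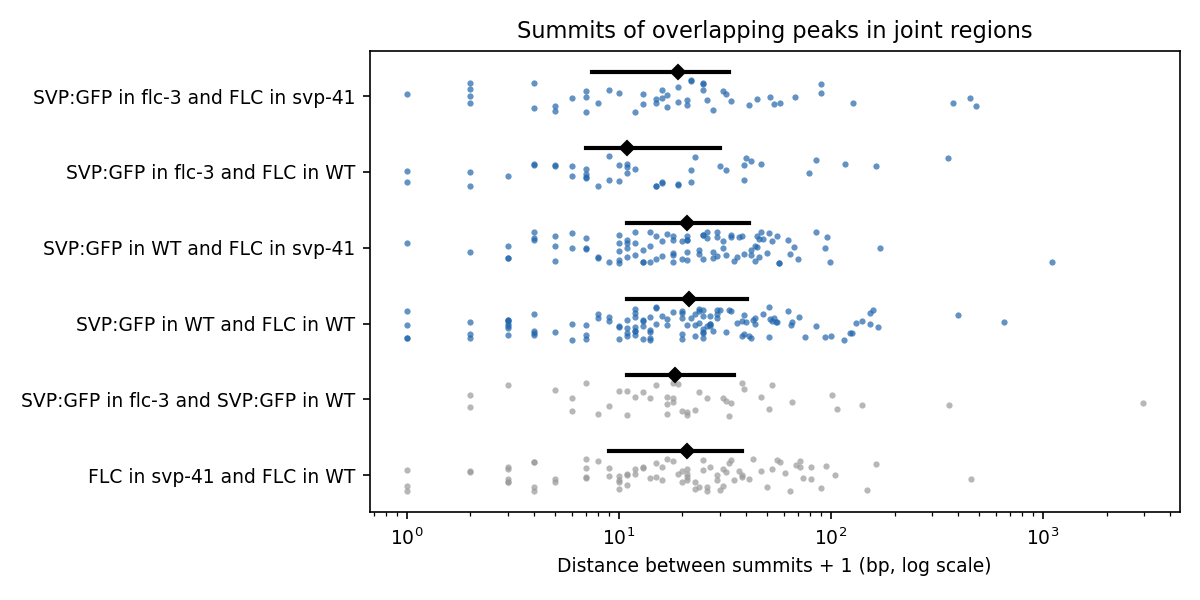
Distance between summits of overlapping peaks in joint regions, plus 1 bp, on a log scale. Blue points are pairs of an SVP:GFP and an FLC peak and grey points are pairs of the same protein in the mutant and in WT; the diamond is the median and the black line spans the quartiles. The medians of all 6 rows lie between 10 and 20.5 bp before the 1 bp is added.

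Joint SVP:GFP peaks carried the CArG-box more often than the other SVP:GFP peaks at genes. In the 200 bp centred on the summit an exact CArG-box (CC, 6 A or T, GG) was found in 13 of 55 joint peaks of SVP:GFP in flc-3 (23.6%, 95% Wilson confidence interval 14.4 to 36.3%) and in 3 of 138 other genic peaks (2.17%, 0.742 to 6.20%). An exact CArG-box occurred in 1.23% of all 200-bp windows of the 5 chromosomes and in 1.47% of windows up to 3 kb upstream of a protein-coding gene. The difference of 21.5 percentage points had an adjusted p of 0.000114 (Fisher's exact test, two-sided, Benjamini-Hochberg adjustment over 16 tests). In WT it was found in 13 of 146 joint peaks (8.90%) and in 8 of 338 other genic peaks (2.37%), a difference of 6.54 points with an adjusted p of 0.0134 by the same exact test. The call in WT was lost when the whole peak was searched (5.34 points, adjusted p = 0.124, Fisher's exact test) and when only peaks with a −log10 p-value of at least 20 were kept (6.06 points, adjusted p = 0.0518, Fisher's exact test).

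For FLC the difference did not pass the threshold in either genotype. The CArG-box was in 14 of 112 joint peaks of FLC in svp-41 (12.5%) and 11 of 130 other genic peaks (8.46%), adjusted p = 0.578 by Fisher's exact test. In WT it was in 16 of 135 joint peaks (11.9%) and 7 of 77 other genic peaks (9.09%), adjusted p = 0.712 by the same exact test. Whether the gap between joint and other peaks differs between SVP:GFP and FLC was not tested. Intervals cover counting error only, and peaks are sites in merged lists, not replicates.

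With 1 base allowed to differ from the CArG-box, a setting chosen after seeing the data, the contrast in the SVP:GFP lists became wider. Such a site was present at 40 of 55 joint peaks (72.7%) and 26 of 138 other genic peaks (18.8%) of SVP:GFP in flc-3, adjusted p = 2.56e-11 by Fisher's exact test. In WT it was present at 89 of 146 joint peaks (61.0%) and 90 of 338 other genic peaks (26.6%), adjusted p = 2.24e-11 by the same exact test. Of the FLC peaks in svp-41, 67.0% of the joint and 50.8% of the other genic peaks had one (adjusted p = 0.0416, Fisher's exact test), and in WT 60.7% and 61.0% (adjusted p = 1, Fisher's exact test). All 200-bp windows of the chromosomes had one in 22.4%, so the other SVP:GFP peaks were near that share and both kinds of FLC peak were above it. The nearest such site was a median of 12.5 bp from the summit at joint peaks of SVP:GFP in flc-3, against 49.5 bp at the other genic peaks, and 12.5 against 40.5 bp in WT. Joint windows also held more A and T, with medians of 66% against 62% in flc-3 and 66% against 63.5% in WT, and the part of base composition in the motif shares was not tested.

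The G-box went the other way in the SVP:GFP lists, without passing the threshold. It was in 4 of 55 joint peaks (7.27%) and 31 of 138 other genic peaks (22.5%) of SVP:GFP in flc-3, adjusted p = 0.0518 by Fisher's exact test, and in 17 of 146 (11.6%) and 67 of 338 (19.8%) in WT, adjusted p = 0.0956 by the same exact test. The G-box occurred in 2.20% of all 200-bp windows and in 3.09% of upstream windows. Among the peaks above the median −log10 p-value of their list, a setting chosen after seeing the data, both differences passed, at −30.6 points in flc-3 and −22.1 points in WT (adjusted p = 0.00139 for each, Fisher's exact test). Over all genic peaks, FLC in svp-41 had a G-box in 8.04% of joint and 3.85% of other genic peaks, and FLC in WT in 13.3% and 10.4%, with adjusted p of 0.359 and 0.712 by the exact test. Above the median the FLC differences were 5.33 points in svp-41 and 16.3 in WT (adjusted p = 0.530 and 0.0849, Fisher's exact test). No joint peak of any list had both an exact CArG-box and a G-box in its window.

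**Figure D3:**
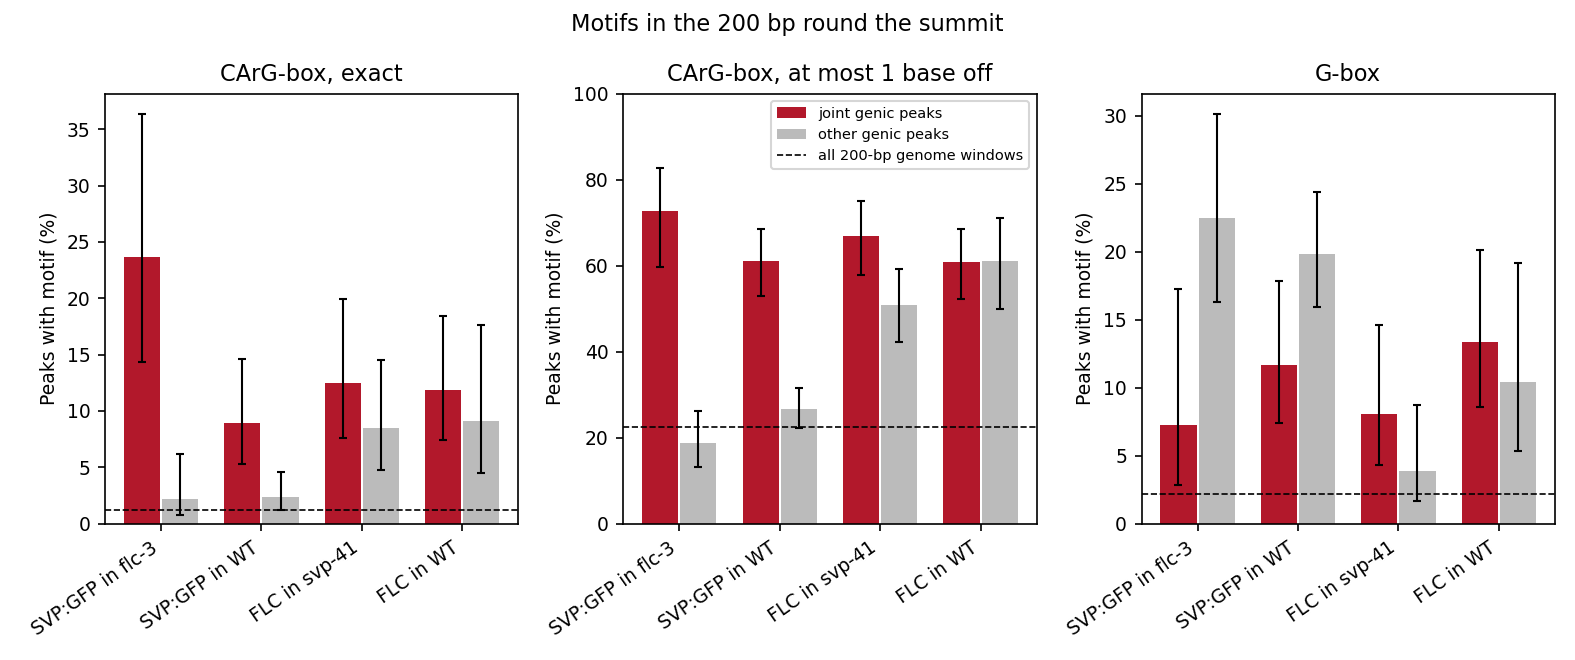
Share of genic peaks with a motif in the 200 bp centred on the summit, for an exact CArG-box, a CArG-box with at most 1 base off and the G-box, each with its own vertical scale. Red bars are joint and grey bars other genic peaks, whiskers are 95% Wilson intervals, and the dashed line is the share of all 200-bp genome windows. In the SVP:GFP lists the red bars stand above the grey for both CArG-box definitions and below them for the G-box.

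Among the 160 joint regions 19 had an exact CArG-box in the window of at least 1 summit, 21 had a G-box, none had both and 120 had neither. An exact or 1-base-off CArG-box was present at 106 (66.2%), and 8 of these also had a G-box. With that wider definition 41 regions had neither motif. Regions held by SVP:GFP in flc-3 had the exact CArG-box in 14 of 56 cases (25%), and the regions without it in 5 of 104 (4.81%). Of the 34 regions in all 4 lists, 7 had an exact CArG-box and 29 a CArG-box within 1 base, against 2 and 21 of the 42 regions held by both WT lists alone. The G-box was at 3 of those 34 and 8 of those 42. These counts describe classes that were compared after the peaks were called, and no test was made between them. A region counted if any of its summit windows had the motif, and regions held by more lists had more windows. At joint peaks with an exact CArG-box, its centre was a median of 12.5 bp from the summit for SVP:GFP in flc-3, 14.5 bp in WT, 7 bp for FLC in svp-41 and 12.5 bp for FLC in WT. The G-box lay farther out, at medians of 67, 39.5, 51.5 and 48 bp in the same lists.

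Besides the genes printed above, regions with an exact CArG-box, named after their values were seen, lay at ATC, a gene of the FT and TFL1 family, at BRC1, a repressor of branching, and at DRB5, a double-stranded RNA-binding protein gene. The DRB5 region had 2 CArG-boxes and was second in the lists of SVP:GFP in flc-3 and FLC in WT by −log10 p-value, with a fold-enrichment of 9.47 in SVP:GFP in flc-3, 6.46 in SVP:GFP in WT, 3.65 in FLC in svp-41 and 15.4 in FLC in WT. At ATC the values were 4.98, 5.03, 5.69 and 5.71 in the same order of lists. BRC1 was held by 3 lists, at 3.03 in SVP:GFP in WT, 3.59 in FLC in svp-41 and 2.31 in FLC in WT.

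Joint summits were most often upstream of genes. Up to 3 kb upstream of a protein-coding gene and inside no such gene lay 50.9% of the joint peaks of SVP:GFP in flc-3 against 42.8% of the other genic peaks, and 57.5% against 47.6% in WT. For FLC in svp-41 the shares were 51.8% and 45.4%, and for FLC in WT 53.3% and 57.1%. None of these differences passed the threshold (adjusted p between 0.110 and 0.712, Fisher's exact test). In SVP:GFP in flc-3, 7.27% of joint and 18.1% of other genic summits were in a 5′UTR, and 7.27% and 14.5% in a 3′UTR. In SVP:GFP in WT the shares were 15.1% and 14.8% in a 5′UTR, and 8.22% and 14.8% in a 3′UTR. FLC in svp-41 had 12.5% and 13.8% in a 5′UTR, and 8.93% and 7.69% in a 3′UTR. FLC in WT had 16.3% and 18.2% in a 5′UTR, and 8.15% and 2.60% in a 3′UTR. Coding exons held 12.7% of joint and 12.3% of other genic summits of SVP:GFP in flc-3, and 4.11% and 4.73% in WT. The coding-exon shares of FLC were 8.04% and 12.3% in svp-41, and 4.44% and 3.90% in WT. Downstream lay 16.4% and 5.80% of SVP:GFP summits in flc-3, and 5.48% and 8.28% in WT. The downstream shares of FLC were 8.93% and 6.92% in svp-41, and 7.41% and 10.4% in WT. The UTR, coding-exon and downstream shares were not tested. The share assigned to 2 or more genes was 47.3% of joint and 62.3% of other genic peaks for SVP:GFP in flc-3, and 58.2% and 54.4% in WT. For FLC it was 55.4% and 56.9% in svp-41, and 51.1% and 55.8% in WT.

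Sequence with a near-identical copy elsewhere (at least 95% identity over 150 bp) was less frequent at joint FLC peaks in svp-41. It was found at 6 of 112 joint peaks (5.36%) and 27 of 130 other genic peaks (20.8%), adjusted p = 0.00446 by Fisher's exact test. The difference of −15.4 points became −0.0436 points with a −log10 p-value of at least 20 (adjusted p = 1, Fisher's exact test) and −3.15 points above the median −log10 p-value (adjusted p = 0.712, Fisher's exact test). For FLC in WT the counts were 5 of 135 and 10 of 77 (adjusted p = 0.0716, Fisher's exact test). SVP:GFP had such sequence at 10.9% of joint and 10.1% of other genic peaks in flc-3, and at 2.74% and 4.44% in WT, and neither difference passed the exact test. Only 7 joint regions held a peak at copied sequence, among them those at AT1G54920 and AT1G54930 and the one in the coding sequence of AT4G08760.

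Members stood higher in their lists than other genic peaks did. This is a description, since the peak calls that chose them rest on the same values. The median fold-enrichment was 3.90 at joint and 3.50 at other genic peaks of SVP:GFP in flc-3, and 4.15 and 3.52 in WT. For FLC it was 4.64 and 3.61 in svp-41, and 3.77 and 3.07 in WT. Joint peaks were narrower than the others in SVP:GFP in WT, with medians of 505.5 and 688.5 bp, and wider in FLC in WT, with medians of 323 and 229 bp. The genic peaks of each list were also split into 4 equal bins by −log10 p-value. In FLC in WT, 49 of the 53 peaks in the bin of highest values were joint (92.5%), and 26 of 53 in the lowest (49.1%). In SVP:GFP in WT the highest bin held fewer joint peaks than the next, at 40 of 121 (33.1%) and 56 of 121 (46.3%).

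**Figure D4:**
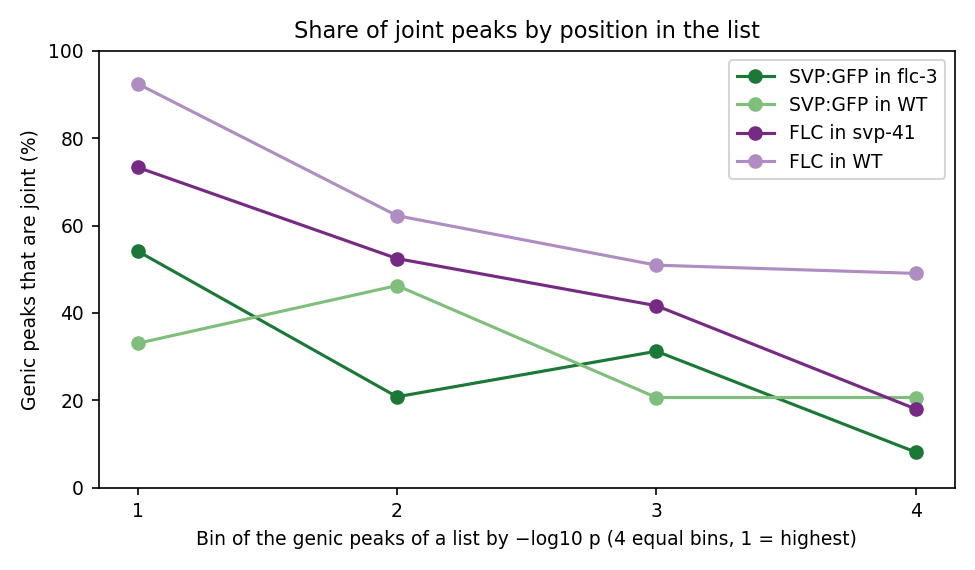
Share of genic peaks that overlap the other protein, in 4 equal bins of each list ordered by −log10 p-value, with the highest values in bin 1. The share is 92.5% in bin 1 of FLC in WT and 8.16% in bin 4 of SVP:GFP in flc-3, and in SVP:GFP in WT it is highest in bin 2, at 46.3%.

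Where both lists of a protein held a joint region, the median fold-enrichment was lower in flc-3 for SVP:GFP and higher in svp-41 for FLC. Over 43 joint regions SVP:GFP had a median fold-enrichment of 4.38 in flc-3 and 5.67 in WT, and the value in flc-3 was the higher one in 8. At 89 other genic regions in both SVP:GFP lists the medians were 3.68 in flc-3 and 6.43 in WT. Over 88 joint regions FLC had a median of 5.49 in svp-41 and 4.41 in WT, and the value in svp-41 was the higher one in 60. At 28 other genic regions in both FLC lists the medians were 3.85 in svp-41 and 2.99 in WT. The lists give neither depth nor replicate values, so no test of these differences was made. The direction was thus the same at joint and at other genic regions for both proteins.

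Of the 171 genes on a list of flowering regulators, 26 were assigned to a joint peak (15.2%), against 261 of 37899 annotated genes (0.689%). Another 22 were assigned to SVP:GFP peaks only and 7 to FLC peaks only, against 572 and 269 of the 37899 annotated genes. List genes thus also had a higher share than all genes at peaks of a single protein. Joint peaks held 2 of 10 MADS-box floral repressors and partners and 1 of 8 MADS-box flowering promoters. These peaks also held 2 of 13 genes of floral meristem and organ identity, and 1 of 7 genes of the FT family and its partners. They held 3 of 16 genes of the age pathway, 5 of 8 AP2-like and TEMPRANILLO repressors, 4 of 43 genes of photoperiod, light and clock, 2 of 28 gibberellin genes, 3 of 17 jasmonate genes and 3 of 21 genes of vernalization, the autonomous pathway and cold. Among the photoperiod, light and clock genes, 10 had SVP:GFP peaks without FLC, among them PIF3, PIF4, PIF5 and CRY1. The list, which does not include ATC, was chosen with results of these data known, so the shares are a description.

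By mean rank, the strongest joint regions of that list were at the MADS-box genes SEP3 and SOC1. SEP3 specifies floral organs with other MADS-box genes, and its region on chromosome 1 (8598413 to 8599336) had a fold-enrichment of 6.85 in SVP:GFP in flc-3, 10.4 in SVP:GFP in WT, 11.8 in FLC in svp-41 and 8.77 in FLC in WT. The −log10 p-value was 56.9 in SVP:GFP in flc-3, 204 in SVP:GFP in WT, 141 in FLC in svp-41 and 77.8 in FLC in WT, and the peak was the first of SVP:GFP in WT. Its summits were also upstream of the neighbouring AT1G24265, whose start was closer, at 1515 to 1533 bp. SOC1 integrates flowering signals, and its region on chromosome 2 (18810847 to 18812007) had 5.54 in SVP:GFP in flc-3, 9.45 in SVP:GFP in WT, 17.0 in FLC in svp-41 and 9.63 in FLC in WT. The summits at SOC1 were between 16 and 30 bp upstream of the gene, and with a −log10 p-value of 204 the peak was the first of FLC in svp-41. In both regions SVP:GFP was lower in flc-3 than in WT, and FLC was higher in svp-41 than in WT.

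SHP2, which acts in carpel and fruit development, had 3.47 in SVP:GFP in flc-3, 4.61 in SVP:GFP in WT, 6.48 in FLC in svp-41 and 2.32 in FLC in WT, all over the CArG-box printed above. AGL16, a MADS-box gene described as a floral repressor, had 7.71 in SVP:GFP in WT, 3.99 in FLC in svp-41 and 11.5 in FLC in WT, with all summits in its 5′UTR. AGL16 differed from SEP3, SOC1 and SHP2 in that FLC had the lower value in svp-41.

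The SVP gene itself lay in the widest joint region, 4826 bp on chromosome 2 (9578798 to 9583624). The fold-enrichment was 4.94 in SVP:GFP in flc-3, 5.47 in SVP:GFP in WT, 6.73 in FLC in svp-41 and 5.11 in FLC in WT. Plants with the fusion gene carry added SVP sequence that neither control line carries, and its part in the SVP:GFP values there was not tested. The FLC peaks came from plants without the fusion gene, and their summits lay in the 5′UTR of SVP. At the joint peaks, the SVP:GFP summit was in a coding exon of SVP in flc-3 and in the 5′UTR in WT. The region was also assigned to AT2G22530 and NET2D. It held a further SVP:GFP peak in flc-3 that is no member, with its summit 2967 bp from the summit in WT.

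FT was a joint region of the mutant lists only, with 2.12 in SVP:GFP in flc-3 and 6.10 in FLC in svp-41. The −log10 p-value was 14.4 in SVP:GFP in flc-3 and 39.3 in FLC in svp-41. No peak of either WT list was part of this region. The 93 bp that its peaks share are 20.7% of the shorter peak. FT was thus not joint when at least 50% of the shorter peak had to be covered.

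The AP2-like and TEMPRANILLO genes encode repressors of flowering, several of which act on FT. Their joint peaks had fold-enrichments from 2.09 at AP2 in FLC in WT to 5.15 at TOE3 in FLC in svp-41. SMZ had 3.50 in SVP:GFP in flc-3, 3.74 in SVP:GFP in WT and 3.37 in FLC in svp-41. TEM1 was in both WT lists alone, with 4.09 in SVP:GFP and 2.97 in FLC, and so was AP2, with 3.42 and 2.09 in the same order. Thus 3 lists held SMZ and only WT lists held TEM1 and AP2, whose CArG-boxes are printed above. TEM2 had 3.34 in SVP:GFP in WT and 3.88 in FLC in svp-41, and TOE3 had 3.15 in SVP:GFP in WT, 5.15 in FLC in svp-41 and 2.79 in FLC in WT. The AP2-like genes TOE1 and TOE2 had SVP:GFP peaks only.

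Precursors of miR156, which keeps plants juvenile by targeting SPL transcripts, were at 3 joint regions. MIR156D was in both WT lists alone, with 5.16 in SVP:GFP and 4.13 in FLC. MIR156E had 3.99 in SVP:GFP in flc-3, 4.16 in FLC in svp-41 and 3.18 in FLC in WT, and MIR156F had 3.42 in SVP:GFP in flc-3, 3.97 in SVP:GFP in WT, 3.56 in FLC in svp-41 and 2.82 in FLC in WT. The MIR156E peaks shared an exact CArG-box, and those of MIR156F a G-box.

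Among hormone genes RGL2, which encodes a DELLA repressor of gibberellin responses, had 5.30 in SVP:GFP in flc-3, 6.26 in SVP:GFP in WT, 7.90 in FLC in svp-41 and 8.07 in FLC in WT, with all 4 summits between 1128 and 1138 bp upstream. DDF1, whose overexpression lowers gibberellin, had 4.56 in SVP:GFP in WT and 3.50 in FLC in WT, each over 2 G-boxes. AOC4 encodes an allene oxide cyclase of jasmonate synthesis. It had 3.74 in SVP:GFP in flc-3, 5.83 in SVP:GFP in WT, 14.0 in FLC in svp-41 and 4.98 in FLC in WT, in its 3′UTR. This peak of FLC in svp-41 was the second of its list. JAZ6, a repressor of jasmonate signalling, had 6.38 in SVP:GFP in WT, 4.11 in FLC in svp-41 and 10.8 in FLC in WT. JAZ9 had 5.59 in SVP:GFP in WT and 2.73 in FLC in svp-41. Its peak of SVP:GFP in flc-3, at 3.09, overlapped the SVP:GFP peak in WT but no FLC peak, and is no member.

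CBF1, CBF2 and CBF3 encode factors of cold acclimation and lie side by side on chromosome 4, where 3 joint regions followed each other with gaps of 4338 and 1058 bp. The region next to CBF1 was in all 4 lists, with 3.58 in SVP:GFP in flc-3, 9.06 in SVP:GFP in WT, 11.7 in FLC in svp-41 and 7.87 in FLC in WT. The region between CBF3 and CBF1 had 3.82 in SVP:GFP in WT, 10.7 in FLC in svp-41 and 4.45 in FLC in WT. That at CBF2 had 3.46 in SVP:GFP in WT and 4.21 in FLC in svp-41.

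In the group of photoperiod, light and clock genes, SPA2, a partner of the light-signalling repressor COP1, had the peak of highest −log10 p-value in SVP:GFP in flc-3. It had 9.27 in SVP:GFP in flc-3, 6.18 in SVP:GFP in WT and 4.30 in FLC in WT, and here SVP:GFP was higher in flc-3 than in WT. RVE2, a MYB-like gene related to the clock, had 3.50 in SVP:GFP in flc-3, 4.41 in SVP:GFP in WT, 3.88 in FLC in svp-41 and 4.36 in FLC in WT. The values of RVE2 lay close together, unlike those of SPA2, which had no peak of FLC in svp-41. COL1, a relative of CONSTANS, and NF-YC3, a subunit of a complex that works with CONSTANS, were in both WT lists alone. COL1 had 4.01 in SVP:GFP and 3.71 in FLC, and NF-YC3 had 2.95 in SVP:GFP and 2.50 in FLC.

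**Figure D5:**
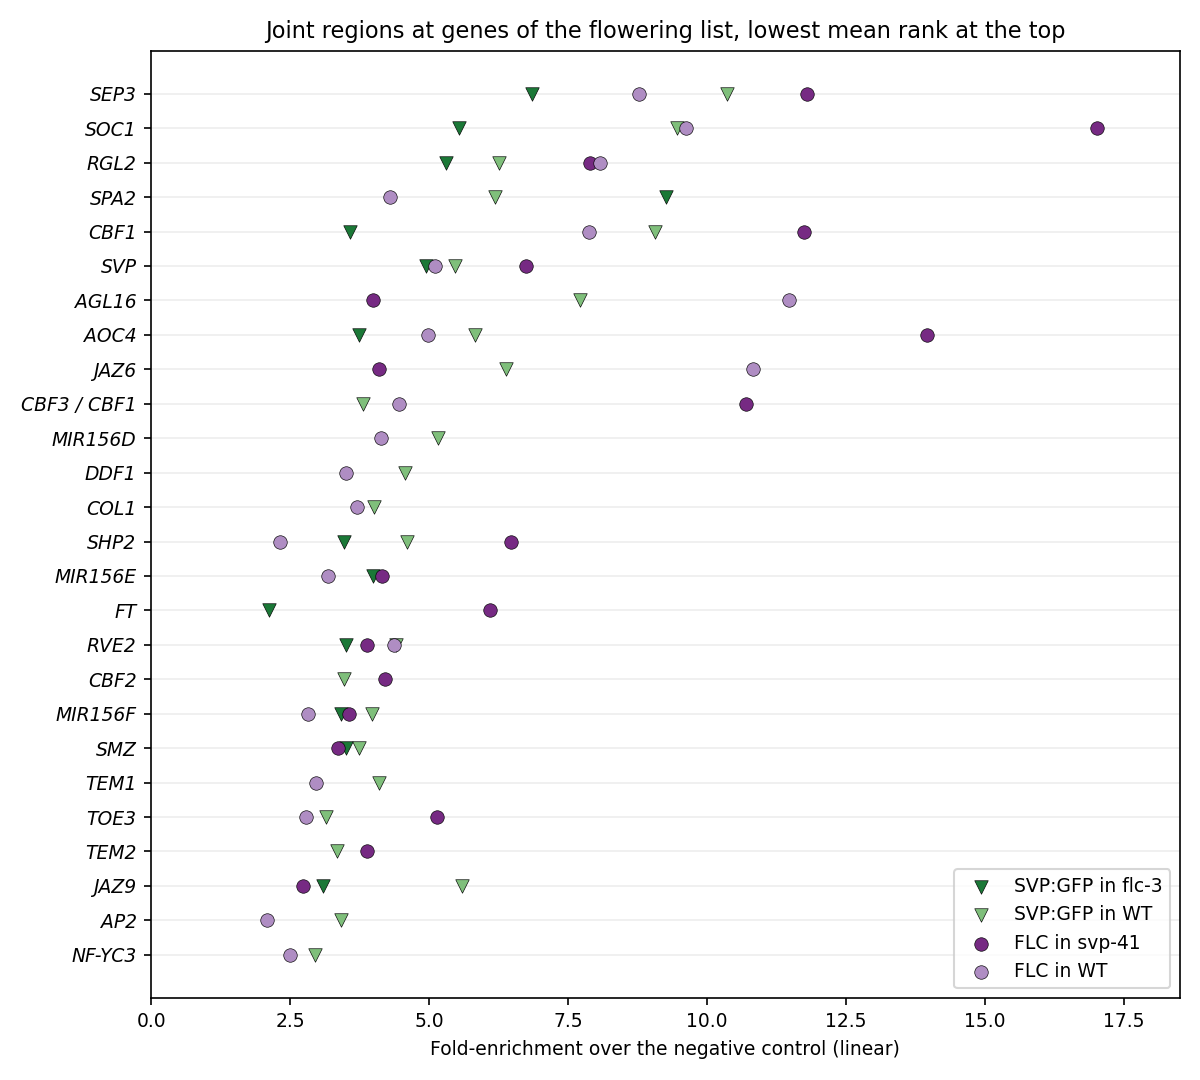
Fold-enrichment over the negative control, on a linear axis, at the joint regions of genes of the flowering list, ordered by the mean position of the region in the lists that hold it, with the strongest at the top. Triangles are SVP:GFP and circles FLC, dark for the mutant and light for WT. The JAZ9 point of SVP:GFP in flc-3 belongs to a peak that overlaps no FLC peak. SEP3 and SOC1 lead, and SOC1 in FLC in svp-41 has the highest value, 17.0.

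The 10 joint regions of all 4 lists that stood highest on average included SEP3 and SOC1. The second was at AT1G22460, with 7.12 in SVP:GFP in flc-3, 9.45 in SVP:GFP in WT, 9.20 in FLC in svp-41 and 6.11 in FLC in WT. AT1G44010 had 5.07 in SVP:GFP in flc-3, 8.47 in SVP:GFP in WT, 9.57 in FLC in svp-41 and 13.0 in FLC in WT, with a CArG-box under each summit. NAC3, a NAC transcription factor gene, had 5.38 in SVP:GFP in flc-3, 9.37 in SVP:GFP in WT, 14.9 in FLC in svp-41 and 7.79 in FLC in WT, from 638 to 650 bp downstream of the gene. At AT1G22460 all summits were in the 5′UTR, while those of AT1G44010 were upstream of the gene. BZIP49, a bZIP factor gene, had 5.34 in SVP:GFP in flc-3, 6.29 in SVP:GFP in WT, 15.4 in FLC in svp-41 and 8.36 in FLC in WT. bZIP44, of the same class, had 6.03 in SVP:GFP in flc-3, 7.28 in SVP:GFP in WT, 6.73 in FLC in svp-41 and 7.34 in FLC in WT, each peak over a CArG-box. The remaining regions were at RPS15 with its neighbours, at AT3G15470 and at LEJ2.

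The 10 highest regions of both WT lists alone had fold-enrichments from 3.87 to 5.51 in SVP:GFP and from 3.34 to 6.32 in FLC. They included AT2G25460 with RLP21, at 5.51 in SVP:GFP and 6.32 in FLC, MIR156D and TPS9, a trehalose-phosphate synthase gene, at 4.60 and 3.34. None of the 10 had an exact CArG-box, and the regions at AT2G25460 and AT5G41110 had a G-box.

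Of the 6 regions of both mutant lists alone, the 5 highest by mean position were 119 to 182 bp wide and had fold-enrichments from 1.99 to 2.60 in SVP:GFP in flc-3 and from 1.79 to 2.19 in FLC in svp-41. They lay at AT5G10340, AT5G24060, GH3.1, a gene of the auxin-conjugating GH3 family, ATCSLC08 and AT3G29760. Those at AT5G10340 and AT5G24060 had 2 near-identical copies elsewhere in the genome. FT was the remaining one.

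Some regions in both WT lists stood far apart in position between the proteins. ARF2, WOL, which encodes a cytokinin receptor, and MUTE, a regulator of stomatal development, stood higher in the SVP:GFP list, with differences in rank, as a percentage of the list and SVP:GFP minus FLC, of −73.3, −67.0 and −56.6 points. At ARF2 the fold-enrichment was 5.67 in SVP:GFP and 2.41 in FLC, and at WOL 5.08 in SVP:GFP and 2.42 in FLC. CK1, the coding region of AT4G08760 and AT1G54930 stood higher in the FLC list, with differences of 67.0, 58.5 and 43.5 points. CK1 had 3.03 in SVP:GFP and 5.77 in FLC. AT4G08760 and AT1G54930 lie at copied sequence, with 10 to 18 copies, and at both SVP:GFP was higher in flc-3 (3.90 and 4.50) than in WT (2.41 and 2.78).

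The members nearest the limit of the rule overlapped by 93 bp at FT, 96 bp at AT5G10340 and 97 bp at AT5G24060. Genic peaks just outside it missed a peak of the other protein by 113 bp at AT2G08986, by 133 and 167 bp at AT4G08760 and by 288 bp at AT5G24060.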

How the data were processed

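The report uses the 4 deposited peak lists, each merging 3 ChIP samples of a group. According to the submitters' processing notes the authors used CASAVA 1.8, Bowtie2 2.0.2, MACS and TAIR10, and the study's methods add that control samples were pooled for peak calling and that peaks were kept where reproducible (IDR) and also found by NarrowPeaks. The fold-enrichment (a ratio over the control) and the −log10 p-value were made by the authors in peak calling and used as deposited. Samples were grouped by their titles. The members and gene lists were chosen with earlier results of these data known.

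Peaks were overlapped and merged in Python 3.11.15, and the overlaps were checked with bedtools 2.31.1. Summits were placed on the RefSeq annotation of TAIR10.1 (37899 genes), motifs were searched on both strands, and copies were found with blastn 2.17.0. The position classes (upstream, UTR, exon, intron, downstream) used only the 27444 protein-coding genes. Whether start coordinates count from 0 or 1 is not given in the sources used here, so positions may be off by 1 bp. Shares were compared by Fisher's exact test (SciPy 1.17.1, two-sided, 16 tests, threshold 0.05). The scripts were tested on simulated data. The genes named are those of the flowering list at joint peaks, the 10 highest regions by mean rank in all 4 lists and in both WT lists alone, the 5 highest in both mutant lists alone, and the 3 regions with the largest rank difference in each direction. ATC, BRC1, DRB5 and the regions with distant summits or several regions per gene were named after their values were seen. Alternatives changed the overlap rule, the motif and its window, the −log10 p minimum, list sizes, the gene annotation, the copy definition and the upstream distance. Single replicates are merged in the lists and were not analysed here.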

Additional observations from a re-analysis of the deposited data

How the results depend on the processing

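No paired analysis was possible because the lists merge the replicates, and for the same reason no replicate could be left out. The 448 joint genic peaks became 205 with a −log10 p-value of at least 20, 250 with 1 minimum (17.2) for all lists and 288 with equal list sizes (246 peaks), and the 160 joint regions became 74, 92 and 97; all 3 settings keep fewer peaks. Requiring that at least 50% of the shorter peak was covered left 446 joint genic peaks and 159 joint regions. Requiring the summit inside a peak of the other protein left 441 joint genic peaks. With any gene of the TAIR10.1 annotation in place of the authors' assignment the joint genic peaks were 536, and those of SVP:GFP in flc-3 were 83 in place of 55. The median summit distance of 19 bp kept its size in all 3 alternatives. Differences below are in percentage points, joint minus other genic peaks, with p from Fisher's exact test. For the CArG-box 23 of 28 alternatives left direction and call as they were. In SVP:GFP in WT the call was lost with the whole peak (5.34) and with a −log10 p-value of at least 20 (6.06). FLC in WT turned to −0.587 with a core of 5 to 7 bases and to −0.298 with 1 base off, which gave 16.2 in FLC in svp-41 (adjusted p = 0.0416, exact test). The G-box in SVP:GFP in flc-3 passed the threshold with the whole peak (−18.1), at −log10 p of at least 20 (−32.2), without copied sequence (−16.8) and above the median (−30.6), and in SVP:GFP in WT above the median (−22.1); FLC in WT turned to −1.33 with the whole peak. The upstream difference of SVP:GFP in flc-3 turned to −1.70 within 1 kb, −11.7 upstream of any gene, −7.73 at −log10 p of at least 20 and −3.89 above the median. In SVP:GFP in WT it was −1.24 upstream of any gene and 12.7 without copied sequence (adjusted p = 0.0414, exact test), where FLC in svp-41 gave −1.57. For copied sequence, SVP:GFP in WT passed with 90% identity over 100 bp (−10.1), and FLC in svp-41 lost its call at −log10 p of at least 20 (−0.0436) and above the median (−3.15). The settings with 1 base off and above the median were chosen after seeing the data. The cause of these changes was not tested. Without depths or replicate values, the precision of a single peak's value is unknown.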
